A study of Mus musculus with 4 samples.

Results

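The mitochondrial respiratory chain subunits were examined in mouse bone marrow-derived macrophages on 4 one-colour Agilent arrays. Members were all probes of the authors' table whose gene symbol starts with Nduf, with Sdh and a letter from a to d, with Uqcr, with Atp5, or with Cox and a digit from 4 to 8, provided that the spot was well above background on at least 1 array. All 140 probes with such a symbol met this condition, of 56605 probes on the array that are not controls. The condition removed no member, since 100% of the spots in the authors' table met it. The 140 probes belonged to 92 gene symbols, of 18787 genes measured in all. Of the 92, 56 had 1 probe and 36 had several. By the complex they belong to, the genes were 36 subunits and 7 assembly factors of complex I, 4 subunits and 4 assembly factors of complex II, 8 subunits of complex III, 14 of complex IV and 15 of complex V. The remaining 4 were Ndufa4 with its paralogue Ndufa4l2, and Atp5sl and the pseudogene Atp5c1-ps. The table held no row for Cox5b, Cox8b or Cox8c.

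There were 4 groups of 1 array each: Batf2-/- macrophages given R848 at 100 ng/ml for 8 h, Batf2-/- macrophages left untreated, wild-type macrophages given the same R848 dose for 8 h, and untreated wild-type macrophages. R848 is a synthetic ligand of Toll-like receptor 7, and Batf2 is a transcription factor of the AP-1 family. The cells came from femurs of male C57BL/6J mice and were grown in macrophage colony-stimulating factor, and the labels give no mouse age and no number of animals behind a group. The series addresses how macrophages without Batf2 answer R848. With 1 array in a group no difference has a replicate check, so no test is given and no p-value.

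The respiratory chain passes electrons from NADH through complex I, or from succinate through complex II, to ubiquinone, then through complex III and cytochrome c to complex IV, where oxygen is reduced. Complexes I, III and IV pump protons, and complex V, the ATP synthase, lets them flow back to make ATP. Most subunits are encoded in the nucleus and a small set in mitochondrial DNA. Macrophages activated through Toll-like receptors are known for a shift from oxidative phosphorylation to glycolysis and for a build-up of succinate, the substrate of complex II.

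All 7 measured macrophage markers were well above background on the 4 arrays, with summed signals of 787, 729, 670 and 633 times the array's 75th percentile in knockout cells with R848, untreated knockout cells, wild-type cells with R848 and untreated wild-type cells, in that order. The share of probes well above background was between 60.57% and 71.36%. The Batf2 probe gave a processed signal of 10.8 in knockout cells with R848, where it was not well above background, and 26.7 in untreated knockout cells, against 94.8 in wild-type cells with R848 and 34.1 in untreated wild-type cells. It was therefore at least 6.20-fold lower in knockout than in wild-type cells with R848. Untreated, the values of the genotypes lay within 1.21-fold, and whether the probe lies inside the deleted part is not given. The 4 granulocyte precursor markers (Mpo, Elane, Prtn3 and Ctsg) summed to 1.98 in knockout cells with R848 and 5.70 in untreated knockout cells, against 17.7 in wild-type cells with R848 and 82.6 in untreated wild-type cells. In bulk RNA, fewer cells of a type and less RNA per cell cannot be told apart.

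By the brightest probe of each gene, which stands for the gene throughout, transcripts of the respiratory chain differed little between the arrays. No gene reached a 2-fold difference after R848 in knockout cells, and in wild-type cells 0 were at least 2-fold higher and 2, Sdhaf4 and Cox6b2, at least 2-fold lower. Of all genes, 7.27% passed 2-fold upward and 5.64% downward in knockout cells with R848, and 5.94% and 6.51% did so in wild-type cells with R848. At 1.5-fold, 3 members were higher (Ndufaf4, Cox5a and Cox6a2) and 2 lower (Sdhaf3 and Cox7a1) in knockout cells, where the shares of all genes were 14.4% and 14.1%. In wild-type cells 1 member (Ndufaf6) was higher and 5 (Sdhaf4, Cox6b2, Sdhaf3, Atp5sl and Sdhd) were lower at 1.5-fold, beside 12.9% and 15.3% of all genes. The median log2 difference of the 92 genes (R848 minus untreated) was 0.07 in knockout cells and 0.06 in wild-type cells, against all-gene medians of -0.03 and -0.02. The interquartile range of the members was 0.308 log2 units in knockout cells and 0.394 in wild-type cells, while that of all genes was 0.651 and 0.637.

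The technical spread was measured between repeated spots and between probes. The probes with 10 spots on each array gave a pooled standard deviation between spots of 0.067 log2 units for the knockout response and 0.074 for the wild-type response (289 probes). Of the 92 members, 39 (42.4%) lay within 2 such standard deviations of 0 in knockout cells and 29 (31.5%) in wild-type cells. All genes had shares of 23.7% and 27.0%, and genes above the 75th percentile 27.9% and 29.4%. Most members thus lay beyond the spread of spots, which does not hold the spread between cultures. Atp5g2, a gene for the membrane ring of ATP synthase, was the member printed 10 times, and its log2 difference was -0.08 ± 0.07 in knockout cells and -0.23 ± 0.05 in wild-type cells (SD, n = 10 spots of 1 array pair). The spread between different probes of the same gene was larger, with a standard deviation of 0.410 in knockout cells and 0.329 in wild-type cells over the 36 genes with several probes. No gene had probes that were 1.5-fold apart from 0 in opposite directions. Probes of opposite sign were common: 15 of the 36 genes had them in the knockout response and 18 in the wild-type response. Between genotypes 20 had them with R848 and 17 untreated, and in the difference of the responses 21 did. For such genes the direction of the brightest probe is not shared by all probes.

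Some of the 48 dimmer probes passed 2-fold where the brightest probe of the gene did not. With R848 in knockout cells, 2 were higher (of Atp5f1 and Sdha) and 2 lower (of Atp5j2 and Ndufv2), beside 7.94% and 6.58% of all probes that were not the brightest of their gene. In wild-type cells 0 of 47 were higher and 1, of Ndufv2, was lower, beside 6.88% and 8.08%. The Ndufv2 probe had signals of 0.0727 with R848 and 0.165 untreated in knockout cells, and 0.0832 and 0.206 in wild-type cells, while the brightest Ndufv2 probe differed by 0.15 and 0.31 log2 units. The Atp5j2 probe had 0.152 and 0.416 in knockout cells and 0.384 and 0.461 in wild-type cells, and was the 1 dimmer probe past 2-fold between genotypes with R848 (-1.34). The Atp5f1 probe had 0.537 and 0.218 in knockout cells and 0.581 and 0.356 in wild-type cells. The Sdha probe was well above background on 2 arrays alone and was at least 3.36-fold higher with R848 in knockout cells. All 4 probes were under 0.6 times the 75th percentile of their array.

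Between genotypes with R848, 0 dimmer probes were 2-fold higher and 1 was lower, beside 2.99% and 2.15% of all such probes, and untreated there were 0 in either direction, beside 2.06% and 3.02%. In the difference of the responses 0 passed 2-fold upward and 1, of Atp5j2, downward, beside 4.69% and 3.02%. At 1.5-fold with R848, 2 dimmer probes were higher and 4 lower in knockout cells, beside 16.4% and 16.9% of all such probes, and 2 were higher and 4 lower in wild-type cells, beside 14.3% and 19%. Between genotypes at 1.5-fold, 2 were higher and 2 lower with R848, beside 10.4% and 7.77%, and 0 were higher and 1 lower untreated, beside 8.35% and 8.72%. The difference of the responses had 3 higher and 1 lower, beside 12.8% and 9.69%.

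**Figure D1:**
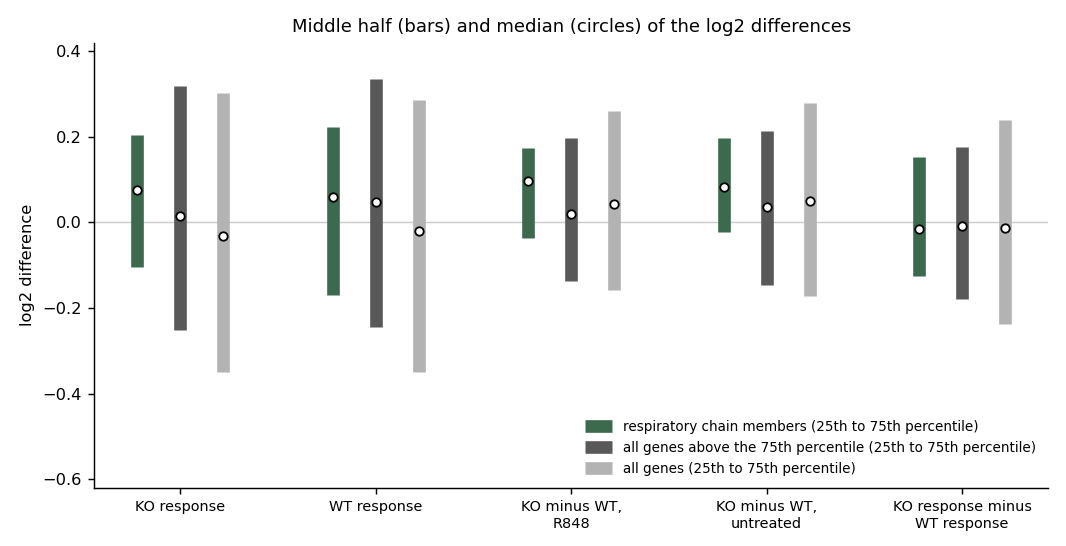
Log2 differences of the 92 respiratory chain genes (green), of all genes above the 75th percentile of their array (dark grey) and of all genes (light grey) in the 5 comparisons; bars run from the 25th to the 75th percentile and circles mark medians. The members' bars are shorter than those of all genes in all 5 comparisons, and their medians lie between -0.02 and 0.10.

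The promoters of the genes, which the choice by symbol did not use, were searched for short runs of letters. RefSeq windows from 250 bases before to 50 bases after the transcription start (build GRCm38.p6) were available for 76 of the 92 genes, in 82 windows. The letters GCGCANGCG (N is any base), a core of the site of the transcription factor NRF1, an activator of many nuclear respiratory genes, stood on either strand in 25 of the 82 windows (30.5%), against 6.25% of 32851 windows of all genes. The YY1 letters AAGATGGCG were found in 11.0% of member windows and 1.40% of all windows, and the ETS letters CCGGAAGT in 6.10% and 3.89%. At least 1 of the NRF1, YY1 and ETS letters stood in 36 of the 82 member windows (43.9%), against 10.6% of all windows. Most member windows thus held none of them. TATAAA stood in 8.54% of member windows and 13.6% of all. By complex, the NRF1 letters were present for 7 of 14 complex V genes, 2 of 3 complex II subunits, 8 of 32 complex I subunits, 2 of 5 complex III genes and 1 of 10 complex IV genes. A match of letters is a description and not a shown binding site. The windows below are of 5 members that carry such letters: Sdhd, Sdhaf4 and Ndufaf4 were among the members furthest from 0 in a response, and Uqcrh and Uqcrc1 were the highest and the lowest complex III members between genotypes with R848. Capitals mark the NRF1 letters on either strand (a longer run holds overlapping matches on both strands), and in Uqcrh the ETS letters on the opposite strand.
Sdhd, chr9:50603800-50604099, minus strand: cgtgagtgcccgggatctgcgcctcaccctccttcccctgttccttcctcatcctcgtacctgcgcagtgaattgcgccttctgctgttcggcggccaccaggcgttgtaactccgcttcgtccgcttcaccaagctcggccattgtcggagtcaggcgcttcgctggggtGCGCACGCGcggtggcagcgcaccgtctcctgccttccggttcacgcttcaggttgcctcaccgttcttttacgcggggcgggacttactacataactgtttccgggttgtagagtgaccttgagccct
Sdhaf4, chr1:24005591-24005890, minus strand: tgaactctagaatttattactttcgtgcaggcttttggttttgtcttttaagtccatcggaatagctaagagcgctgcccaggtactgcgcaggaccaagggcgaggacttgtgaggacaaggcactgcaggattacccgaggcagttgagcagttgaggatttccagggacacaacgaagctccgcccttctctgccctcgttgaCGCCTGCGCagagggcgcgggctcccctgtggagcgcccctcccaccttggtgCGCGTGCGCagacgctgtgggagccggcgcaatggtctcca
Ndufaf4, chr4:24897833-24898132, plus strand: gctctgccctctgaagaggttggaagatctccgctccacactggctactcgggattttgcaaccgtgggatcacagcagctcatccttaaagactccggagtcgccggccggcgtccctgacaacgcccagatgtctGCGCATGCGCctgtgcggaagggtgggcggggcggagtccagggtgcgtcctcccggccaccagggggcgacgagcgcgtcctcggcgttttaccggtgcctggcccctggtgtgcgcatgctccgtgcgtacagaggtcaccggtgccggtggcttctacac
Uqcrh, chr4:116075021-116075320, minus strand: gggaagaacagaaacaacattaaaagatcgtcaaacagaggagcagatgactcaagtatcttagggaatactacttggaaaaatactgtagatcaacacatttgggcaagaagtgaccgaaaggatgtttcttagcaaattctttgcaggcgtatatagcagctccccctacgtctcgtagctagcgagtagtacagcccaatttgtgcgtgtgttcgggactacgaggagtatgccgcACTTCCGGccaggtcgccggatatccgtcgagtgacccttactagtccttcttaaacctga
Uqcrc1, chr9:108936398-108936697, plus strand: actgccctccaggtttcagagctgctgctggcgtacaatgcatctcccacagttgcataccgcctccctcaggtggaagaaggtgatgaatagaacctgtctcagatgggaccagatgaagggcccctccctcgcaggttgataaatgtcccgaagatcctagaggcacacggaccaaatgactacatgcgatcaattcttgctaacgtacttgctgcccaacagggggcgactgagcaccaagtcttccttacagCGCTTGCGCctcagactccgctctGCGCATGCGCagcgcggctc
Counted from the start as 1, the marked letters begin at -79 in Sdhd, -44 and 10 in Sdhaf4, -113 in Ndufaf4, -11 in Uqcrh, and 7 and 31 in Uqcrc1. The 24 genes with NRF1 letters had a median log2 difference of 0.08 in knockout cells with R848 against untreated and 0.15 in wild-type cells, and the 52 genes without them had 0.04 and 0.004. Both sets spanned positive and negative values, between -1.27 and 0.77 with the letters and between -1.21 and 0.74 without.

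Complex I, the entry point for electrons from NADH, showed small differences throughout. By the brightest probe, none of its 36 subunits differed by 1.5-fold in any of the 5 comparisons. Among its 18 dimmer probes, those of Ndufv2 and Ndufv3 were lower by 1.5-fold with R848 in knockout cells, and 1 each of Ndufv2, Ndufb5, Ndufa7 and Ndufa3 in wild-type cells (-1.31, -0.88, -0.71 and -0.67), the Ndufa7 probe not being well above background on every array. Their median log2 difference with R848 was 0.07 in knockout cells (range -0.57 to 0.48) and 0.09 in wild-type cells (range -0.30 to 0.41), and 23 and 22 of the 36 lay above the all-gene median. Among the core subunits with nuclear genes, differences were small too. Ndufs1, which carries iron-sulfur clusters of the electron input module, had signals of 3.81 with R848 and 3.96 untreated in knockout cells, and 3.44 with R848 and 3.98 untreated in wild-type cells, in multiples of the array's 75th percentile. Ndufv1, which binds NADH and flavin, had 3.02 and 3.34 in knockout cells, and 3.20 and 2.77 in wild-type cells, in the same order. Ndufs7, which lies next to the quinone site, had 4.68 with R848 and 3.63 untreated in knockout cells, and 5.28 and 4.05 in wild-type cells. Ndufs7 responded by 0.37 and 0.38 log2 units, above Ndufs1, Ndufs3, Ndufs8, Ndufv1 and Ndufv2 in both genotypes, which lay between -0.21 and 0.31.

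Among the accessory subunits of complex I, Ndufa6, a small protein of the quinone module, was lowest in knockout cells with R848. Its signals were 3.20 with R848 and 4.75 untreated in knockout cells, and 3.35 and 3.88 in wild-type cells, so that both arrays with R848 were below both untreated arrays. The log2 differences were -0.57 and -0.21. Ndufb4, a membrane arm subunit, was highest in knockout cells, with 4.54 and 3.26 there and 3.82 and 3.34 in wild-type cells. Ndufb8, another membrane arm subunit, was highest in wild-type cells, with 5.29 with R848 and 4.39 untreated in knockout cells and 4.17 and 3.14 in wild-type cells. These are log2 differences of 0.27 and 0.41, while the second Ndufb8 probe gave 0.003 and -0.13. Of the modules, the electron input module had median log2 differences of 0.04 in knockout and 0.09 in wild-type cells (9 genes), the quinone module 0.08 and -0.02 (7 genes) and the membrane arm 0.09 and 0.10 (20 genes).

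The complex I assembly factors, which help to build the complex and are not part of it, were more scattered. Ndufaf4 had signals of 0.276 with R848 and 0.162 untreated in knockout cells, and 0.230 with R848 and 0.206 untreated in wild-type cells. It was thus 1.70-fold higher with R848 in knockout cells, the highest of all members there, and 1.11-fold higher in wild-type cells, and its signals were all well under the 75th percentile. Ndufaf6, which acts early in assembly, had 1.05 and 0.706 in knockout cells and 1.04 and 0.635 in wild-type cells, 1.49-fold and 1.64-fold higher with R848. That pattern belonged to its brightest probe: the other 2 probes gave log2 differences of 0.06 and 0.05 in knockout cells and -0.33 and 0.08 in wild-type cells. Ndufaf7, which methylates a core subunit, had 0.832 and 0.927 in knockout cells and 0.739 and 1.09 in wild-type cells. Atp5sl, whose current symbol is Dmac2 and which is an assembly factor of complex I despite its older name, had 1.25 and 1.38 in knockout cells and 0.919 and 1.53 in wild-type cells. The lowest value of Atp5sl was in wild-type cells with R848, 1.66-fold below untreated wild-type cells.

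Complex II, succinate dehydrogenase, oxidizes succinate in the tricarboxylic acid cycle and had subunits that differed in direction. Sdhd, a membrane anchor, had signals of 9.37 with R848 and 12.7 untreated in knockout cells, and 7.55 with R848 and 11.4 untreated in wild-type cells. Both arrays with R848 were below both untreated arrays, and Sdhd was 1.35-fold lower in knockout and 1.51-fold lower in wild-type cells. Among structural subunits, Cox6b2 alone was lower in wild-type cells, and Cox7a1, Ndufa6 and Cox6b2 were lower in knockout cells. Sdhb, the iron-sulfur subunit, went the other way, with 5.83 and 4.96 in knockout cells and 5.74 and 4.85 in wild-type cells (log2 differences 0.23 and 0.24). Sdha, the flavoprotein that binds succinate, had 6.55 and 7.10 in knockout cells and 5.53 and 6.65 in wild-type cells (-0.12 and -0.27). Sdhc, the other anchor, had 9.12 and 10.6 in knockout cells and 8.56 and 8.33 in wild-type cells (-0.22 and 0.04). The median of the 4 subunits relative to all genes was -0.14 in knockout and -0.09 in wild-type cells, and with the mean over probes in place of the brightest probe it was 0.01 in both.

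The assembly factors of complex II held the largest wild-type response. Sdhaf4, which assists the assembly of Sdha, had signals of 0.496 with R848 and 0.589 untreated in knockout cells, and 0.349 with R848 and 0.843 untreated in wild-type cells. The untreated wild-type array was the high one, and Sdhaf4 fell by 1.27 on the log2 scale (2.41-fold) in wild-type cells with R848, against a difference of -0.25 in knockout cells. With normexp background correction the wild-type difference was -0.84, under 2-fold. Sdhaf3, which helps the iron-sulfur subunit mature, had 0.107 and 0.193 in knockout cells and 0.0674 and 0.136 in wild-type cells, the wild-type value with R848 being not well above background. It was 1.80-fold lower with R848 in knockout cells and at least 1.94-fold lower in wild-type cells. Sdhaf1, which acts with Sdhaf3, had 0.972 and 1.001 in knockout cells and 1.30 and 1.21 in wild-type cells, and Sdhaf2, which adds flavin to Sdha, had 0.864 and 0.844 in knockout cells and 0.688 and 0.856 in wild-type cells.

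Complex III, which hands electrons from ubiquinol to cytochrome c, had 8 genes, none of them 1.5-fold different in any comparison by its brightest probe, while among 4 dimmer probes that of Uqcrfs1 passed it between genotypes with R848 and 1 of Uqcrb in the difference of the responses, neither of them well above background on every array. Uqcrh, the hinge subunit, was lowest in both genotypes, with signals of 33.7 with R848 and 39.4 untreated in knockout cells, and 26.1 with R848 and 34.7 untreated in wild-type cells. Uqcrfs1, the Rieske iron-sulfur protein, had 12.5 and 14.1 in knockout cells and 9.79 and 11.0 in wild-type cells. For both genes the knockout value exceeded the wild-type value of the same treatment. The core protein Uqcrc1 had 1.501 and 1.29 in knockout cells and 1.89 and 1.51 in wild-type cells, lower in knockout at both treatments, and the core protein Uqcrc2 had 16.9 and 15.5 in knockout cells and 15.2 and 15.8 in wild-type cells. The median response of the 8 genes was 0.10 in knockout and 0.22 in wild-type cells.

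Complex IV, cytochrome c oxidase, showed the widest range, and the range lay in few genes. Cox5a, a nuclear-encoded subunit, had signals of 17.8 with R848 and 10.6 untreated in knockout cells, and 15.95 with R848 and 10.6 untreated in wild-type cells. Cox5a was 1.67-fold higher with R848 in knockout cells and just under 1.5-fold higher in wild-type cells, the highest response among structural subunits in both genotypes, and the untreated arrays of the genotypes were alike. Over the alternative ways of processing, its log2 difference stayed between 0.66 and 0.89 in knockout cells and between 0.51 and 0.74 in wild-type cells. Cox4i1, another nuclear-encoded subunit, had 40.8 and 48.5 in knockout cells and 39.6 and 41.1 in wild-type cells. Its isoform Cox4i2, known as induced by low oxygen, had 10.2 and 8.62 in knockout cells and 10.6 and 7.65 in wild-type cells, and was the third highest response in wild-type cells at 0.47. The remaining ubiquitous subunits Cox6a1, Cox6b1, Cox6c, Cox7a2, Cox7b, Cox7c and Cox8a lay between -0.03 and 0.31 in both genotypes. Cox7a2l had 101 and 124 in knockout cells and 87.8 and 113 in wild-type cells, log2 differences of -0.29 and -0.37 with R848.

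Of the complex IV genes, Cox6b2, known as the testis isoform, differed most between the arrays. It had signals of 0.610 with R848 and 0.899 untreated in knockout cells, and 1.07 with R848 and 2.46 untreated in wild-type cells. The untreated wild-type array was the highest, and Cox6b2 fell by 1.21 on the log2 scale (2.31-fold) in wild-type cells with R848, against -0.56 in knockout cells. The granulocyte precursor markers had the same order of arrays, with Mpo at 0.978 and 3.70 in knockout cells and 9.01 and 54.8 in wild-type cells, and so had Prss34, the 1 measured marker of basophils and mast cells, at 0.124 and 0.249 in knockout cells and 2.62 and 5.42 in wild-type cells. The part of these markers in the Cox6b2 result was not tested. Cox6a2 and Cox7a1 are the heart and skeletal muscle isoforms. Cox6a2 had 0.438 and 0.287 in knockout cells and 0.518 and 0.511 in wild-type cells. Cox7a1 had 0.935 and 1.48 in knockout cells and 1.13 and 1.13 in wild-type cells. Each thus differed with R848 in knockout cells, by 0.61 and -0.66 log2 units, and by 0.02 and 0.004 in wild-type cells.

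Complex V, the ATP synthase, differed little. By the brightest probe, all 15 subunits were within 1.5-fold in every comparison. With R848, 9 of them in knockout cells and 4 in wild-type cells lay within 2 spot standard deviations of 0. These were 60% and 26.7% of the subunits, beside 23.7% and 27.0% of all genes. Of the 14 dimmer probes, those of Atp5f1, Atp5j2 and Atp5b passed 1.5-fold in at least 1 comparison. The catalytic subunit Atp5b had signals of 20.8 with R848 and 19.2 untreated in knockout cells, and 22.3 with R848 and 19.1 untreated in wild-type cells. Atp5a1, its partner in the head of the enzyme, had 58.8 and 59.4 in knockout cells and 50.2 and 51.1 in wild-type cells, and Atp5c1, the central stalk, had 6.44 and 7.25 in knockout cells and 6.01 and 7.49 in wild-type cells. Atp5o, a stalk subunit that binds the head, was the highest, with 10.2 and 7.54 in knockout cells and 9.96 and 7.44 in wild-type cells (0.44 and 0.42). The 3 genes of the membrane ring, Atp5g1, Atp5g2 and Atp5g3, encode the same mature protein, and their responses were 0.10, -0.08 and 0.14 in knockout cells and 0.15, -0.23 and 0.15 in wild-type cells. Atp5c1-ps is a pseudogene of Atp5c1, and its signals of 1.83 and 2.42 in knockout cells and 1.88 and 2.40 in wild-type cells are uncertain, since the probe may also bind the parent transcript.

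**Figure D2:**
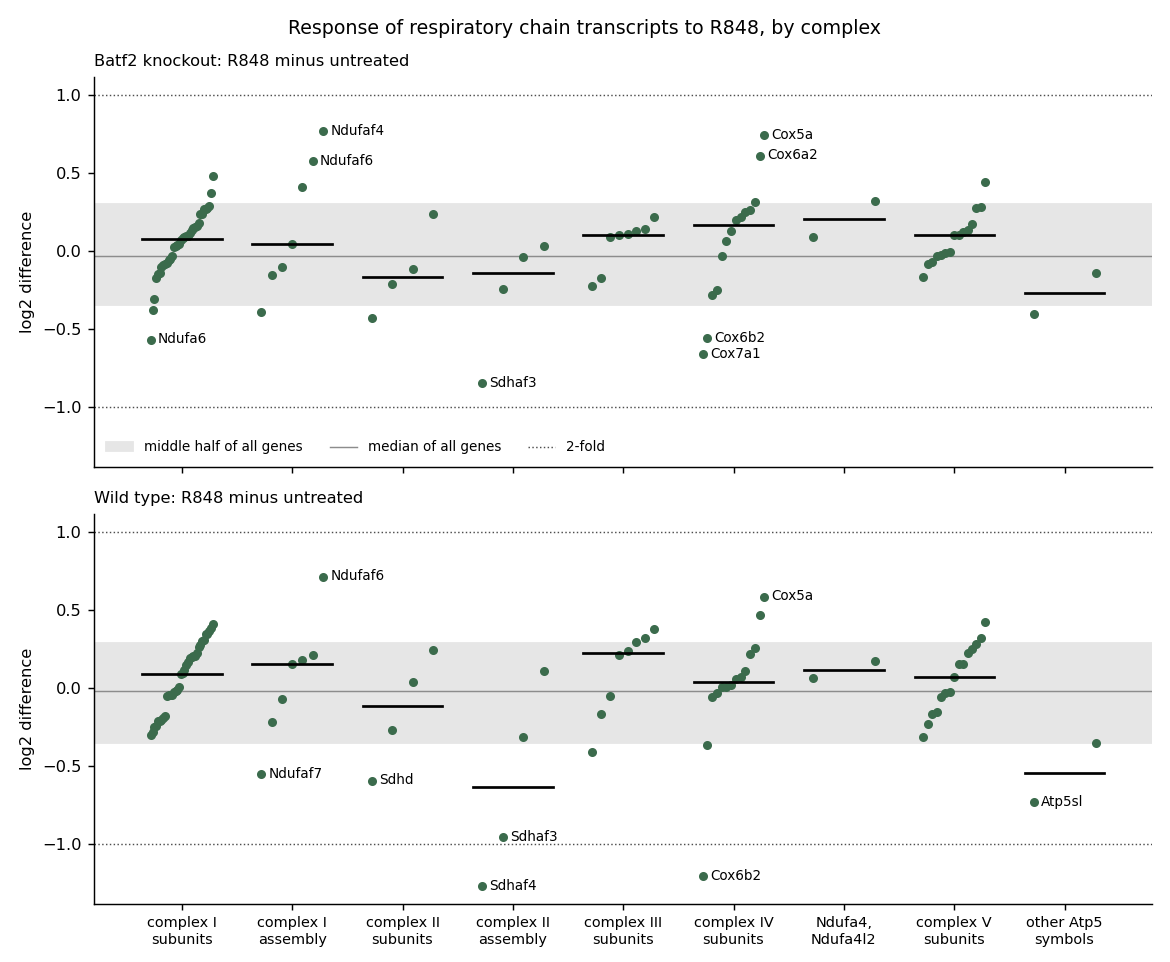
Log2 difference between R848 and untreated arrays for each of the 92 genes (points, ordered by value within a complex), with the knockout above and the wild type below; black bars are medians of a complex, the grey band runs from the 25th to the 75th percentile of all genes, and dotted lines mark 2-fold. Only Sdhaf4 (-1.27) and Cox6b2 (-1.21) in wild-type cells lie beyond a dotted line.

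Set side by side, the complexes had close medians. Relative to the all-gene median, the knockout response was 0.11 for complex I subunits, -0.14 for complex II, 0.13 for complex III, 0.19 for complex IV and 0.13 for complex V. The wild-type response was 0.11, -0.09, 0.24, 0.06 and 0.09 for the same complexes. Complex II was the only complex below the all-gene median in both genotypes, a position it lost with the mean over probes. In wild-type cells complex IV moved to -0.01 with normexp correction and complex V to -0.02 with quantile normalization, so their place relative to all genes is not settled. All these medians lie within the 25th to 75th percentile of all genes. Centring each array on its median moved the all-gene median to 0.11 in knockout and 0.14 in wild-type cells, and the members' medians moved with it to 0.22 and 0.21.

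Ndufa4, once assigned to complex I and now known as a subunit of complex IV, stayed flat while its paralogue did not. Ndufa4 had signals of 25.6 with R848 and 24.1 untreated in knockout cells, and 24.3 with R848 and 21.5 untreated in wild-type cells, differences of 0.09 and 0.17. AA467197, also called Nmes1, is outside the symbol rule and encodes a paralogue of Ndufa4 known to be induced in inflamed macrophages. It had 2.84 with R848 and 0.429 untreated in knockout cells, and 2.84 with R848 and 0.668 untreated in wild-type cells. AA467197 rose 6.63-fold with R848 in knockout and 4.25-fold in wild-type cells, reaching the same level in both genotypes. Ndufa4l2, the paralogue known as induced by low oxygen, had 0.184 and 0.147 in knockout cells and 0.138 and 0.132 in wild-type cells.

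**Figure D3:**
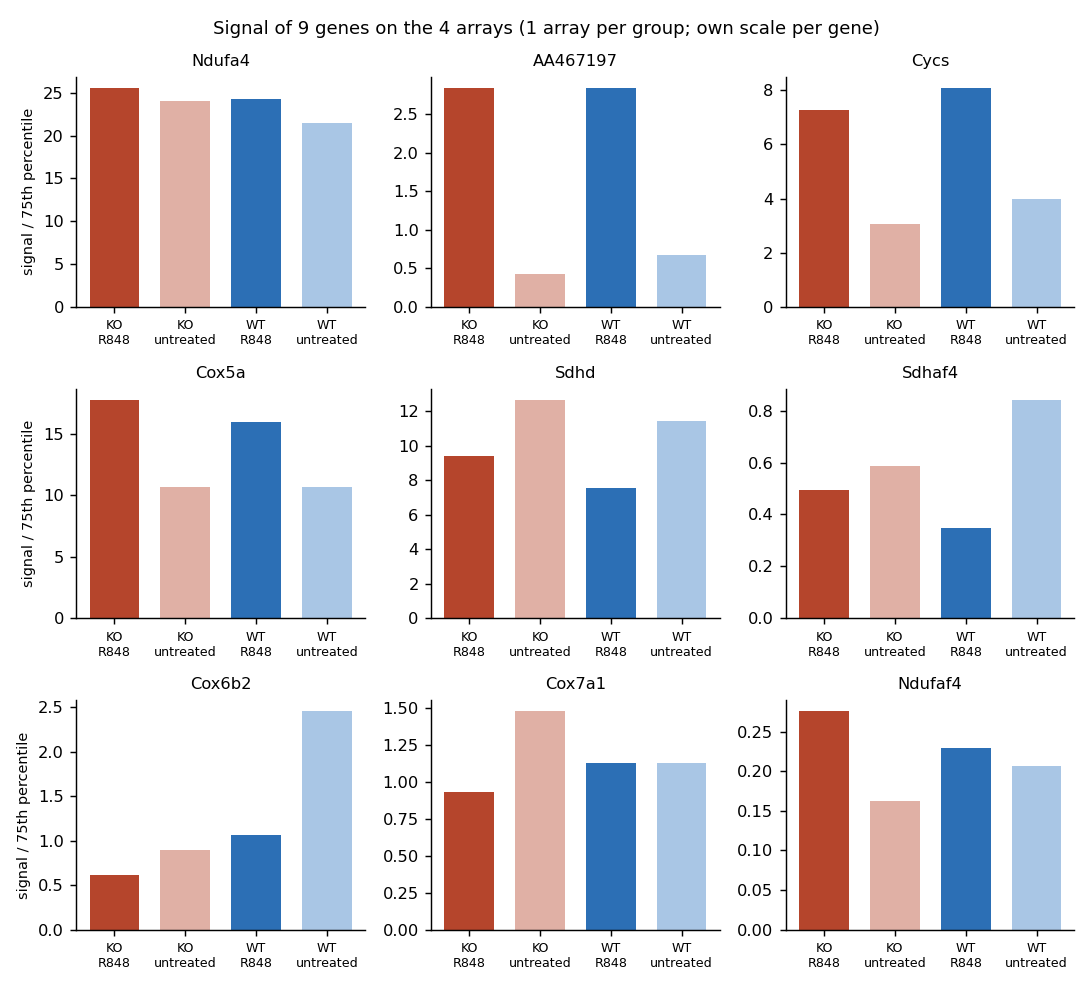
Signals of 9 genes on the 4 arrays, as multiples of the 75th percentile of each array, with a scale of its own for each gene and 1 array per bar; knockout bars stand left of wild-type bars and R848 left of untreated. AA467197, Cycs and Cox5a are higher on both R848 arrays, Sdhd is lower on both, and Sdhaf4 and Cox6b2 are highest on the untreated wild-type array.

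Other genes of oxidative phosphorylation were examined as a list of 17, which held electron carriers, chaperones and assembly factors outside the symbol rule. By the brightest probe, in knockout cells 2 of the 17 were at least 2-fold higher with R848, AA467197 and Cycs. In wild-type cells 3 were, with Sco1 added, and none was 2-fold lower in either. Of all genes, 7.27% were 2-fold higher and 5.64% lower in knockout cells, and 5.94% and 6.51% in wild-type cells. A dimmer probe of Cox17 was 2-fold higher in knockout cells, and one of Surf1 was 2-fold lower in wild-type cells. Cycs, cytochrome c, the carrier between complexes III and IV, had signals of 7.28 with R848 and 3.06 untreated in knockout cells, and 8.09 with R848 and 3.99 untreated in wild-type cells, 2.38-fold and 2.03-fold. Cyc1, the cytochrome of complex III that hands electrons to it, differed by 0.09 and 0.26. Sco1, a copper chaperone of complex IV, had 0.161 and 0.0956 in knockout cells and 0.116 and 0.0573 in wild-type cells. The untreated wild-type value of Sco1 was not well above background, so its wild-type response is at least 2.02-fold. Higd1a, a small protein of the inner membrane, differed by 0.58 and 0.75, and Surf1, an assembly factor of complex IV, by -0.50 and -0.19. These Surf1 values are of the brightest probe, with 1.83 and 2.59 in knockout cells and 2.11 and 2.40 in wild-type cells. Its second probe was of similar brightness, with 1.81 and 2.33 in knockout cells and 1.305 and 2.74 in wild-type cells, so the size of the Surf1 response is not settled.

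The 11 measured subunits encoded in mitochondrial DNA had differences between -0.14 and 0.26 with R848 in knockout cells and between -0.18 and -0.01 in wild-type cells. With R848, all 11 lay above the all-gene median in knockout against wild-type cells, from 0.08 for ATP8 to 0.41 for CYTB, and 4 of 11 did so untreated. Of 12 measured regulators of mitochondrial biogenesis, Esrra, a nuclear receptor of respiratory genes, was the only one whose brightest probe passed 2-fold, with 1.66 and 0.692 in knockout cells (2.40-fold) and 1.32 and 0.771 in wild-type cells (1.70-fold). Of all genes, 7.27% passed 2-fold upward in knockout cells and 5.94% in wild-type cells. The dimmer Esrra probe went the other way, by -0.47 in knockout and -0.31 in wild-type cells, at signals of 0.170 or less. Tfam, which packages and transcribes mitochondrial DNA, was lower, at 0.562 and 0.996 in knockout cells and 0.617 and 0.960 in wild-type cells. Nrf1, the gene of the factor whose letters were counted above, had 2.62 and 3.90 in knockout cells and 2.21 and 2.55 in wild-type cells. Dimmer probes of Pprc1 and Myc were also past 2-fold upward, beside 7.94% of all such probes in knockout cells and 6.88% in wild-type cells. None of 16 tricarboxylic acid cycle genes passed 2-fold by the brightest probe, but dimmer probes of Idh3g, Suclg1 and Suclg2 were 2-fold lower in knockout cells and of Idh2 and Pdhb in wild-type cells. Of all genes, 5.64% were 2-fold lower in knockout cells and 6.51% in wild-type cells, and of all dimmer probes 6.58% and 8.08%. Idh3g, a regulatory subunit of isocitrate dehydrogenase, was lowest in both genotypes (-0.84 and -0.95), and the catalytic subunit Idh3a was the highest (0.87 and 0.51).

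Between genotypes the members differed less than between treatments. With R848, 0 members passed 2-fold in either direction in knockout against wild-type cells, where 2.4% of all genes passed it upward and 1.8% downward. Bright genes passed it less often: 82 of the 92 members were above the 75th percentile. Of all 8756 genes above it, 65 passed 2-fold upward and 89 downward with R848. Untreated, 0 members were higher and 1, Cox6b2, was lower (2.73-fold), beside 1.98% and 2.54% of all genes. Of the 8756 bright genes, 43 were higher and 143 lower untreated. At 1.5-fold with R848, Sdhaf3 was higher (at least 1.53-fold) and Cox6b2 lower (1.75-fold), beside 8.83% and 5.42% of all genes. At 1.5-fold untreated, no member was higher and Cox6b2 and Cox6a2 (1.78-fold) were lower, beside 8.22% and 6.84% of all genes. The members' median log2 difference was 0.10 with R848 and 0.08 untreated, against all-gene medians of 0.04 and 0.05, and with the mean over probes the untreated member median relative to all genes was -0.01. The share of members within 2 spot standard deviations was 53.3% with R848 and 47.8% untreated, beside 35.8% and 33.5% of all genes.

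**Figure D4:**
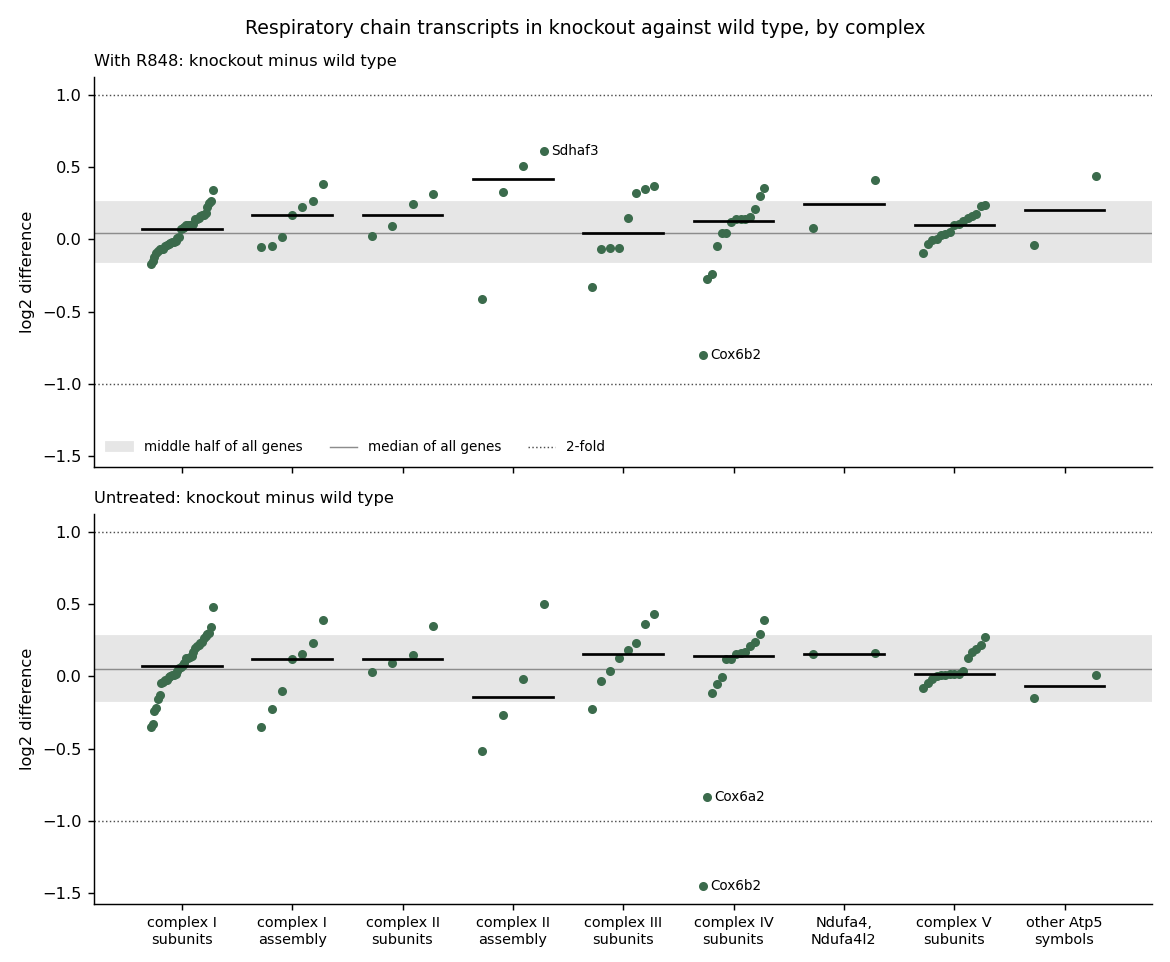
Log2 difference between knockout and wild-type arrays for the 92 genes, with R848 above and untreated below; points, bars, band and dotted lines are as in the plot of responses by complex. Cox6b2 is the lowest member at both treatments (-0.80 with R848 and -1.45 untreated).

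By the brightest probe, several subunits kept the same side at both treatments. Ndufb8 was higher in knockout cells by 0.34 with R848 and 0.48 untreated. Its second probe gave 0.04 and -0.09, so the side of Ndufb8 is not settled. Also higher in knockout cells were Uqcr11 by 0.32 and 0.43, Uqcrfs1 by 0.35 and 0.36, Cox8a by 0.30 and 0.29, and Ndufs5 by 0.27 and 0.34. Uqcrc1 was lower in knockout cells, at -0.33 with R848 and -0.23 untreated, and so was Ndufs7, at -0.17 and -0.16. For 52 of the 92 members the sign was the same at both treatments, with a Pearson correlation of 0.47 and a Spearman correlation of 0.21 across the 92 genes. Over all 18314 genes measured at both treatments, 11393 had the same sign, with correlations of 0.38 and 0.35. These comparisons use different arrays, and genes are not independent replicates.

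The responses of the genotypes went together across members, as they did across all genes. Over the 92 genes, the knockout and wild-type responses had a Pearson correlation of 0.69 and a Spearman correlation of 0.72, and 70 had the same sign. Over all 18064 genes measured in both, the correlations were 0.79 and 0.67, and 13274 had the same sign. The responses share no array, though all 4 arrays lay on 1 slide. The difference between the responses (knockout minus wild type) had a member median of -0.02 and an all-gene median of -0.01. By 2-fold, 1 member was higher, Sdhaf4 (1.03 on the log2 scale, and 0.70 at the lowest of the alternatives), and 0 were lower, beside 3.16% and 2.16% of all genes. Of the 8756 genes above the 75th percentile, 97 were higher and 41 lower. At 1.5-fold, Sdhaf4, Cox6b2, Ndufaf4, Cox6a2 and Atp5sl were higher and Cox7a1 was lower, beside 9.6% and 7.42% of all genes. None of the 6 is a ubiquitous structural subunit. Within 2 spot standard deviations of 0 lay 69 of the 92 members (75%), beside 43.2% of all genes and 54.7% of genes above the 75th percentile. All 15 complex V subunits did so by the brightest probe.

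**Figure D5:**
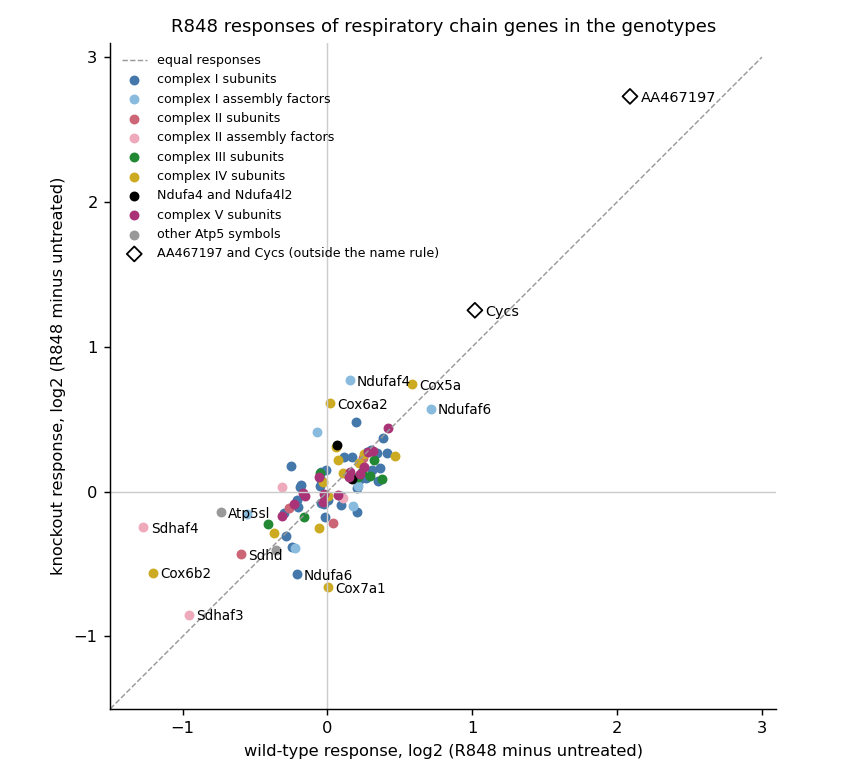
Knockout response (vertical) against wild-type response (horizontal), both as log2 of R848 minus untreated, for the 92 genes coloured by complex and for AA467197 and Cycs (open diamonds). Most members lie near the origin, Cox5a and Ndufaf6 are high and Sdhaf3 and Sdhd low in both genotypes, and AA467197 (2.73 and 2.09) stands far above all members.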

How the data were processed

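Total RNA of 4 macrophage cultures was labelled with Cy3 and hybridised to 4 arrays on 1 slide, read in 1 scan. Per the file headers, the deposited scanner values are spot intensities from Agilent Feature Extraction 11.5.1.1, with background and spatial trend removed and no normalization between arrays. A second deposited file, the authors' table, lists rescaled intensity for 39374 spots. Its values equal the processed signal multiplied by a constant for the array (3.72 to 4.13), within 1% for 100% of spots, and its column medians were 685, 720, 675 and 705 (knockout with R848, knockout untreated, wild type with R848, wild type untreated). What that scale refers to is unknown. The headers annotate the grid to mm9.

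Here, log2 of the processed intensity was taken, spots flagged as outliers were left out, spots of a probe were averaged, and each array's 75th percentile over probes was subtracted. Signals in the text are multiples of that percentile (252 to 278 in intensity units). A gene is its brightest probe. A gene entered a comparison if well above background on 1 of its arrays; a dim side was set to the lowest signal of that array's probes well above background and the fold is then "at least". The number of arrays, 1 per group, limits the precision. Calls are differences of at least 2-fold, and 1.5-fold as a second line, with no test. All 92 symbols matched the gene table by Entrez ID, 90 with the same current symbol.

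The 8 alternatives were quantile normalization, median centring, normexp correction with an offset of 50 (limma 3.58.1 in R 4.3.3), the authors' table, 2 filters on dim probes, the mean over probes, and leaving out uneven areas. The files hold no mean signal column, so normexp used the median signal and median background. After the data were seen, 2 more were added: structural subunits only, and genes above the 75th percentile on both sides. Probes other than the brightest of their gene were also counted on their own after the data were seen. Members, gene lists and named genes (core subunits, isoforms, the 5 highest and 5 lowest members of a comparison, and members past 2-fold) were chosen with earlier results of these data known. Promoters were searched in RefSeq windows of GRCm38.p6. The NRF1 and YY1 letters were first searched in longer forms, by 1 and 2 bases, and were shortened after those results had been seen. An NF-kB motif was also searched and is given in the closing section. Code was run in Python 3.11.15 and was tested on simulated data.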

Additional observations from a re-analysis of the deposited data

Results flagged for a closer look

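For 7 members a difference had opposite signs in the groups compared, with both values beyond 2 spot standard deviations of 0, each resting on 1 array per group, and these differences were not tested. The share of all genes that meet the same rule was not counted, so the number 7 cannot be read as high or low. Under R848, Ndufb3, a membrane arm subunit of complex I, was higher in knockout cells (0.18 log2 units) and lower in wild-type cells (-0.25), a difference of 0.43. Ndufv1, the flavin-binding subunit, was lower in knockout cells (-0.14) and higher in wild-type cells (0.21), a difference of -0.35, and its second probe gave -0.26 and 0.25.

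For the other 5, knockout against wild-type cells differed in sign with R848 and untreated. Sdhaf4 was higher in knockout cells with R848 (0.51) and lower untreated (-0.52), a difference of 1.03 (1.025). Ndufaf4 gave 0.26 and -0.35, a difference of 0.62 (0.6153), and Ndufaf7 gave 0.17 and -0.23, a difference of 0.40. The dimmer probe of Ndufaf7 gave -0.37 at both treatments, a difference of -0.002, so the change of sign was absent there. Atp5sl gave 0.44 and -0.15, a difference of 0.59, while its dimmer probe gave -0.12 and -0.23. Cox7a1 went the other way, with -0.27 with R848 and 0.39 untreated, a difference of -0.67. Of the 7, 2 are structural subunits found in most tissues, 4 are assembly factors and 1 is a muscle isoform.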

How the results depend on the processing

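The median of the members relative to all genes kept its direction in every alternative for the knockout response (main value 0.11), the wild-type response (0.08) and the genotypes with R848 (0.05). The knockout response moved to 0.02175 with quantile normalization, 0.0536 with normexp correction, 0.0696 with the mean over probes and 0.0603 over genes above the 75th percentile. The wild-type response moved to 0.0159 with quantile normalization, 0.0171 with normexp correction and 0.0243 over genes above the 75th percentile, and the genotypes with R848 to 0.0239 with the mean over probes and 0.0830 with quantile normalization. For the untreated genotypes (0.03) it was -0.01 with the mean over probes, and for the difference of the responses it stayed within 0.02 of 0. The number of members at least 2-fold lower in wild-type cells with R848, 2 as reported, was 1 with normexp correction and 1 with structural subunits only, and the single member at least 2-fold higher in the difference of the responses, Sdhaf4, was lost in both (0 and 0). With normexp correction the construction of the values adds 50 to each signal, and Sdhaf4 is dim; structural subunits leave it out. The 135 other recalculated medians and 2-fold counts moved by less than the spread between members or stayed within 1.5 times. Of the single-gene and single-complex values, 2040 kept within that spread and 315 moved, with no called value changing sign. The promoter letters were changed after a first search. With NRF1 letters 1 base longer, 22 of the 82 member windows matched (26.8%, against 4.60% of all windows), and the genes with them had median R848 differences of 0.07 in knockout and 0.15 in wild-type cells, against 0.04 and 0.004 without. With YY1 letters 2 bases longer the shares were 7.32% and 0.633%. An NF-kB motif, searched at the same time, stood in 11.0% of member windows and 8.46% of all. No paired analysis was possible because each group holds 1 array. Leaving out a replicate was not possible for the same reason. Signals of Sdhaf3, Ndufaf1, Ndufaf3, Ndufaf4 and Ndufa4l2 lay below 0.3 times the 75th percentile of their array, so small differences of these genes are the least precise.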
